A study of Mus musculus with 8 samples.

Results

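Fiber-only loops are the 1432 chromatin loops of lens fiber cells that had no counterpart in lens epithelium or in embryonic stem (ES) cells. They make up 19.1% of the 7502 lens fiber loops on chromosomes 1 to 19. They were chosen by the positions of the called loops: a fiber loop is a member when no loop of the epithelium list and none of the ES cell list has both anchor midpoints within 25 kb of its own. By the same rule, 3361 fiber loops had a counterpart in both other lists, 2264 in lens epithelium alone and 445 in ES cells alone, and these 6070 are called the other fiber loops. The mirror sets held 1698 epithelium-only loops, 21.7% of the epithelium list of 7840, and 3821 ES-only loops, 46.6% of the ES cell list of 8205.

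The study mapped contacts along DNA by Hi-C in newborn lens epithelium, in newborn lens fiber cells and in ES cells, with 2 replicates of each, and mapped CTCF by ChIP-seq in both lens cell types, with 1 sample of each. The lens cells came from CD-1 mice at postnatal day 0.5, with 30 microdissected lenses in a Hi-C replicate and 200 lenses behind the CTCF data. The ES cells were the wild-type v6.5 line, grown without feeder cells and with LIF, so that they differ from the lens cells in strain and culture as well as in cell type. All Hi-C material was fixed in 2.0% formaldehyde. The labels give 1 CTCF sample per lens cell type, whereas the methods of the study speak of replicates, and how these were joined is not given in the sources used here. The authors merged both replicates before calling loops, so each cell type has 1 list, neither a spread between replicates nor a test between cell types can be given. The intervals below are 95% intervals, by Wilson for shares and by Newcombe for differences of shares. They cover counting error only, and loops that share an anchor are not independent. No expression was measured in the files used here, so the purity of the dissected cells could not be checked against marker genes.

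A chromatin loop is a pair of distant DNA segments, the anchors, that meet more often than the DNA around them. Most loops of this kind form when cohesin extrudes DNA until it is halted at CTCF bound to its motif, and a second kind joins promoters and enhancers. Loops often mark the corners of topologically associating domains (TADs), stretches of DNA whose parts meet mainly each other. Lens fiber cells differentiate from the epithelium that covers the front of the lens: they leave the cell cycle, elongate, fill with crystallins and lose their nucleus and organelles, under control of FGF, BMP and other signals.

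Among the promoters that lay in anchors of fiber-only loops, those of Pds5b, Gstm6 and Hif1a are shown because they are the genes of the lists described below whose promoter window there carried a CTCF peak in lens fiber cells. The sequences are RefSeq promoter windows of build GRCm38.p6, from 250 bases before to 50 bases after a start of the gene, written 5′ to 3′ along the gene. A gene can have several such windows. Capitals mark a match to the 12-position CTCF core consensus on either strand.
Pds5b, chr5:150673577-150673876, plus strand: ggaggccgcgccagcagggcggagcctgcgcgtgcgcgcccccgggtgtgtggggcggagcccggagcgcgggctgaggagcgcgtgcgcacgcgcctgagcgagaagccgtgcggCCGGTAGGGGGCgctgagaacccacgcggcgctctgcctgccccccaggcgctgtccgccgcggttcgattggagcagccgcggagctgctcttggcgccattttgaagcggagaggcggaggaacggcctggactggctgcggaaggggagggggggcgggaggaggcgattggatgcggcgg
Gstm6, chr3:107953417-107953716, minus strand: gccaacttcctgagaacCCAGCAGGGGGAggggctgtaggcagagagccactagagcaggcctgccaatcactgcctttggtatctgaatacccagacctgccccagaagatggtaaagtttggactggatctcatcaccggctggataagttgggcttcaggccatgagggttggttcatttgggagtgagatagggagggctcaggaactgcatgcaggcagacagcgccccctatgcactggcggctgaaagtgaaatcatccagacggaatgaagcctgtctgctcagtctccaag
Hif1a, chr12:73907617-73907916, plus strand: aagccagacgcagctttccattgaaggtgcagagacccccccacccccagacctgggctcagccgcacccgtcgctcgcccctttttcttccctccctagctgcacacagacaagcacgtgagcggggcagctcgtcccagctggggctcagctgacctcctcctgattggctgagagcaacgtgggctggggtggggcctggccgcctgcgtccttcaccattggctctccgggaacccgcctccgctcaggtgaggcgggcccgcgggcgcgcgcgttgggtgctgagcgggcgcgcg
Pds5b encodes a regulator of cohesin release, Gstm6 a glutathione S-transferase and Hif1a the oxygen-sensitive subunit of hypoxia-inducible factor. The Pds5b peak had a fold enrichment over background of 12.8 and its summit lay 183 bp before the start. The Gstm6 peak, with a fold of 9.18, had its summit 87 bp before the start. The marked match in the Gstm6 window lay at the upstream edge of this peak, not at its summit. The Pds5b and Gstm6 peaks both overlapped a peak of the epithelium list. The Hif1a peak, with a fold of 4.39 and a summit 140 bp past the start, overlapped none. The Hif1a window held no match to these letters. A match is a description of the sequence and no measurement of binding.

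In 45 of the 65 promoter windows that lay in a fiber-only anchor and carried a fiber CTCF peak, no epithelium peak overlapped the window. This share was not computed for windows elsewhere, so it is not shown to be particular to fiber-only anchors. Of all fiber peaks in anchors, 45.4% at fiber-only and 46.1% at other fiber anchors overlapped no epithelium peak. Among the 45 windows, those of 8 genes held the core consensus. The 4 with the highest fold are shown around the match, in stretches of at most 80 bases.
Cbl, chr9:44234211-44234290, minus strand: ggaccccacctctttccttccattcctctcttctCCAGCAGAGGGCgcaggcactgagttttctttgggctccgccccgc
Vps37d, chr5:135078309-135078388, minus strand: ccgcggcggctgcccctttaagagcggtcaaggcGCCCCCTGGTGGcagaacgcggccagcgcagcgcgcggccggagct
Echdc1, chr10:29313500-29313549, plus strand: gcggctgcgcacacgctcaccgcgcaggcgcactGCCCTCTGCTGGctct
Psmc4, chr7:28050288-28050342, minus strand: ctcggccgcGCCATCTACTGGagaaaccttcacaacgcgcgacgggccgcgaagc
Cbl encodes a ubiquitin ligase that turns off receptor tyrosine kinases, Vps37d a subunit of the ESCRT-I sorting complex, Echdc1 an enzyme that repairs a by-product of fatty acid synthesis and Psmc4 an ATPase of the proteasome. The folds of their peaks were 11.6, 10.3, 10.2 and 7.86. The fiber-only loop at Cbl spanned 250 kb with 31 observed contacts, that at Echdc1 200 kb with 94, that at Psmc4 90 kb with 58 and that at Vps37d 50 kb with 80.

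The core consensus was found in 2.47% of all 20084 promoter windows of protein-coding genes on these chromosomes (496 windows). It was found in 20 of the 65 windows in fiber-only anchors with a fiber CTCF peak, which is 30.8% (20.9 to 42.8). Windows with a peak in anchors of other fiber loops held it in 22.3% (17.3 to 28.2, 49 of 220) and windows with a peak outside any fiber anchor in 22.8% (20.2 to 25.7, 200 of 877), and these intervals overlap that of the fiber-only anchors. Without a peak, windows in fiber-only anchors held it in 2.07% (1.24 to 3.45, 14 of 675). Among all windows without a peak the share was 1.23% (233 of 18943), just below that interval, although the intervals of both shares overlap. A fiber CTCF peak lay on 8.78% (6.95 to 11.0) of the 740 windows in fiber-only anchors, on 10.5% (9.27 to 11.9) of those in other fiber anchors and on 5.03% (4.72 to 5.37) of those in no fiber anchor.

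The membership rule used only the loop positions, so the contacts of the members are given as a description. A fiber-only loop had a median of 73 observed contacts in its pixel, with quartiles of 54 and 103, and a median ratio of 2.40 to the contacts expected from the donut of pixels around it, with quartiles of 2.15 and 2.81. Other fiber loops had a median of 60 observed contacts and a median ratio of 2.95, and those found in all 3 lists had a median ratio of 3.28. The median ratio of the fiber-only loops was below that of the other fiber loops on 19 of 19 chromosomes. It was also lower within each anchor width, with 4.29 against 4.41 at 5 kb, 2.65 against 3.06 at 10 kb and 2.30 against 2.45 at 25 kb. A single pixel made up 59.8% of the fiber-only loops (57.3 to 62.4) but 30.4% of the other fiber loops (29.3 to 31.6). Single pixels were also frequent in the mirror sets, with 63.8% of the epithelium-only loops (61.5 to 66.1) and 51.1% of the ES-only loops (49.5 to 52.7). Within anchor widths the median of observed contacts was lower in the fiber-only loops than in the other fiber loops, with 27 against 29 at 5 kb, 52 against 53 at 10 kb and 89 against 117 at 25 kb.

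Fiber-only loops were called mostly at coarse resolution. Of the members, 967 (67.5%) had anchors of 25 kb, 427 (29.8%) of 10 kb and 38 (2.65%) of 5 kb, against 36.3%, 44.2% and 19.5% of the other fiber loops. Loops of all 3 lists had anchors of 5 kb in 30.0% of cases. Epithelium-only loops resembled the fiber-only loops in this, with 61.4% at 25 kb and 5.54% at 5 kb. Because a wide anchor overlaps more peaks and genes by its size, shares below are also given within anchor widths.

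**Figure D1:**
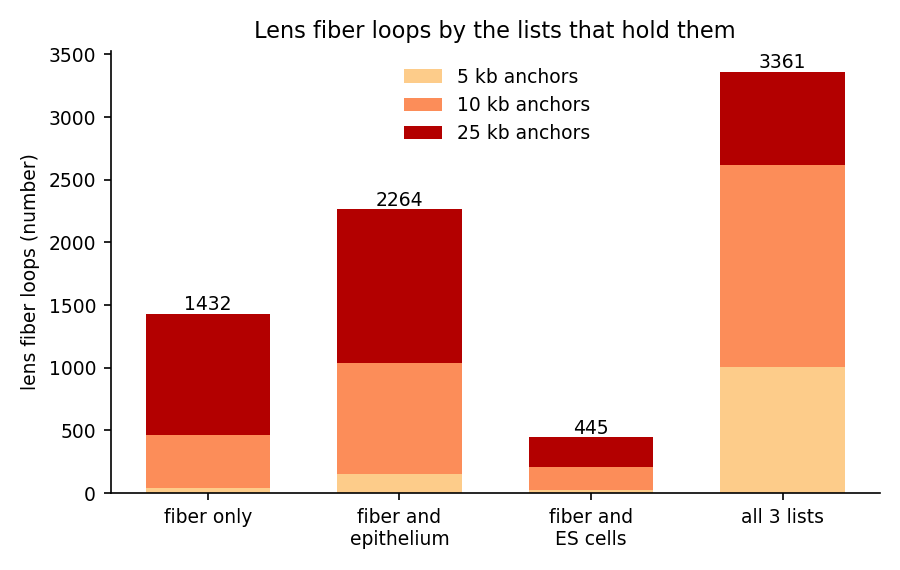
Number of lens fiber loops on chromosomes 1 to 19 (vertical axis) by the lists that hold them (bars), split by the width of the loop anchors (colors). The bar of the 1432 fiber-only loops is mostly 25 kb anchors, whereas the 3361 loops of all 3 lists have mostly 5 and 10 kb anchors.

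The distance of the members from the limit of the rule varied widely. The nearest counterpart of any member lay 27.5 kb away, which was so for 44 loops, and 405 other fiber loops lay exactly at the limit of 25 kb. Of the members, 235 (16.4%) had a loop of another list within 50 kb, 269 (18.8%) between 50 and 100 kb, 566 (39.5%) between 100 and 250 kb and 362 (25.3%) none within 250 kb. The Hs3st3b1 loop of 475 kb on chromosome 11 (chr11:63400001-63425000 to chr11:63875001-63900000, 171 contacts) was one of those just past the limit, with an epithelium loop 27.5 kb away. The 2500 kb loop on chromosome 5 (chr5:5490001-5500000 to chr5:7990001-8000000) was farther out: both of its anchors lay within 25 kb of epithelium anchors and of ES cell anchors, yet the nearest epithelium loop was 260 kb off by this measure.

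The contact maps differed in depth. The paper reports most Hi-C contacts for lens fiber cells, fewer for ES cells and fewest for lens epithelium. These totals, which were not in the lists, include contacts between chromosomes. The paper gives the share of such contacts as lowest in ES cells and highest in lens fiber cells. Every loop lies within a chromosome, so the totals do not rank the maps by the contacts that loops are called from. In fiber and epithelium 2101 loops had the same pixel. There the fiber list had a median of 1.23 times the observed contacts, with quartiles of 1.12 and 1.33. At the 877 pixels shared with ES cells this ratio was 0.746, with quartiles of 0.586 and 0.947. The fiber total is the larger one only with contacts between chromosomes counted in. These pixels were called as loops in both lists, so the ratio is no measure of depth alone. How far the number of fiber-only loops moves with depth was not tested.

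Fiber-only loops tended to be long and spread over a wide range of sizes. Their median size, between anchor midpoints, was 300 kb with quartiles of 130 and 675 kb, against 260 kb (135 to 500) for the other fiber loops, 225 kb for loops of all 3 lists, 325 kb for loops shared with epithelium alone and 250 kb for those shared with ES cells alone. Loops over 1 Mb made up 15.2% of the members (13.4 to 17.1), 15.5% of the loops shared with epithelium alone (14.0 to 17.0), 3.36% of loops of all 3 lists (2.80 to 4.03) and 10.5% of the epithelium-only loops (9.11 to 12). The excess over the epithelium-only loops was 4.67 percentage points (2.32 to 7.05), and within 25 kb anchors 5.33 points (1.98 to 8.68). Within 10 kb anchors it was 0.895 points (-1.35 to 3.40) and within 5 kb anchors 3.64 points (-4.42 to 16.8), and both intervals include 0. Within 5 and 10 kb anchors the members were shorter than the other fiber loops, with medians of 67.5 against 165 kb and 120 against 200 kb, and within 25 kb anchors they were longer, with 475 against 425 kb.

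**Figure D2:**
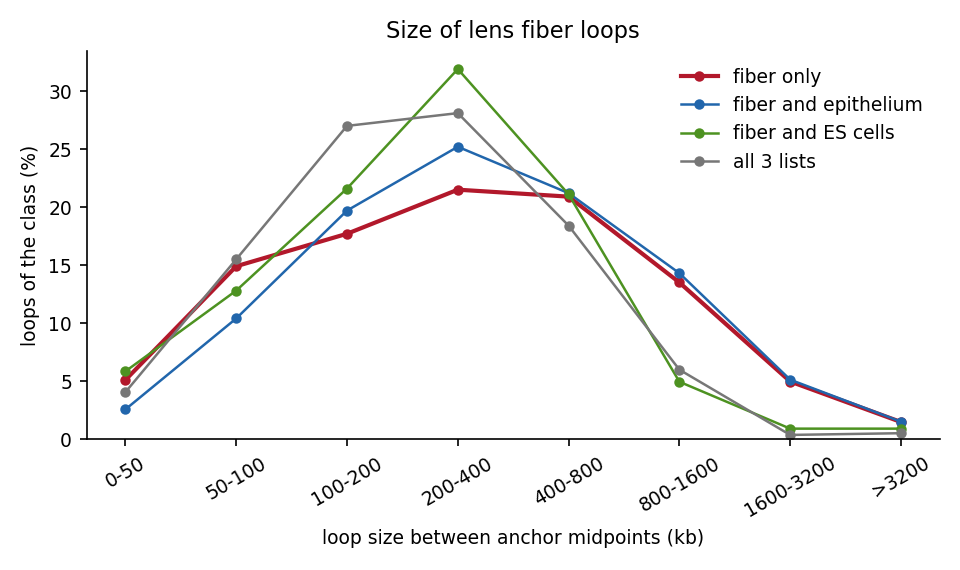
Share of loops of each class (vertical axis, percent) by loop size in kb (horizontal axis, bins that double in width from 50 kb). The fiber-only loops (red) have a lower and broader peak at 200 to 400 kb than the other classes, and above 800 kb they follow the loops shared with epithelium alone rather than the loops of all 3 lists.

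All 19 chromosomes carried fiber-only loops, from 50 on chromosome 19 to 124 on chromosome 2. Their share of a chromosome's fiber loops ran from 16.2% on chromosome 4 to 24.4% on chromosome 5 (109 of 447), with a median of 18.6%. Chromosomes 14, 19 and 17 followed chromosome 5 with 23.2%, 22.7% and 22.1%.

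CTCF lay at both anchors less often in fiber-only loops than in other fiber loops. A fiber CTCF peak overlapped both anchors of 500 members, which is 34.9% (32.5 to 37.4), against 40.5% of the other fiber loops (39.3 to 41.8) and 39.5% of all fiber loops. The difference was -5.63 percentage points (-8.35 to -2.84), and the share of the members was the lower one on 17 of 19 chromosomes. Within anchor widths the gap was wider: 15.8% against 35% at 5 kb (6 of 38 members), 25.5% against 36.4% at 10 kb and 39.8% against 48.5% at 25 kb. With the other fiber loops weighted to the anchor widths of the members, their share was 44.5%. Neither anchor had a fiber peak in 305 members, 21.3% (19.3 to 23.5), against 15.0% of the other fiber loops (14.1 to 15.9), and 275 members (19.2%) had no peak of either lens list at either anchor.

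The comparison with the epithelium-only loops went the other way. Fiber peaks lay at both anchors of 26.6% of the epithelium-only loops (24.6 to 28.8), 8.30 points below the fiber-only loops (5.05 to 11.5). With the epithelium peak list, which is shorter, the shares were 15.4% of fiber-only and 11.5% of epithelium-only loops, a difference of 3.89 points (1.49 to 6.32). Fiber-only loops thus had CTCF at both anchors more often than epithelium-only loops by the peaks of either cell type, although within 5 and 10 kb anchors the intervals of both differences included 0.

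The fiber peaks at fiber-only anchors were not more often absent from the epithelium list than those at other fiber anchors. Of the 1938 fiber peaks in the 2764 distinct anchors of fiber-only loops, 880 overlapped no epithelium peak, which is 45.4% (43.2 to 47.6), against 46.1% (44.9 to 47.3) at other fiber anchors, 48.3% (46.1 to 50.6) at epithelium-only anchors and 50% of all 23132 fiber peaks. Peaks of both lists were the stronger ones, with a median fold of 8.51 at fiber-only anchors against 6.01 for peaks of the fiber list alone. A peak of the fiber list alone lay at both anchors of 141 members, 9.85% (8.41 to 11.5), and of 10.3% of the other fiber loops (9.60 to 11.1).

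Of these 141 loops, the 5 whose weaker peak was strongest are named. On chromosome 4 a loop of 60 kb and 77 contacts joined the ends of Nol9 and Tas1r1 (chr4:152030001-152040000) to the promoter of Plekhg5 (chr4:152090001-152100000), with peaks of 13.9 and 9.27 fold and no epithelium peak in either anchor. Nol9 acts in ribosomal RNA processing, Tas1r1 is a taste receptor and Plekhg5 activates small GTPases. A loop of 2050 kb on chromosome 15 (chr15:19450001-19475000 to chr15:21500001-21525000, 57 contacts) ended inside Cdh12, a cadherin gene, with peaks of 9.27 and 9.35 fold. On chromosome 19 a loop of 525 kb and 52 contacts ran from Slc22a8, an organic anion transporter, to Asrgl1, an asparaginase, and on chromosome 2 a loop of 500 kb and 107 contacts from Ptpa, an activator of protein phosphatase 2A, to Ptges, a prostaglandin E synthase. The fifth, on chromosome 10, ran 1415 kb from Marcks, a membrane-bound substrate of protein kinase C, with 17 contacts.

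Fiber-only loops were seldom the loops at TAD corners. A member lay at the corner of a fiber TAD, with both midpoints within 25 kb of the TAD's ends, in 86 cases, 6.01% (4.89 to 7.36), against 24.9% of the other fiber loops (23.8 to 26.0), a difference of -18.9 points (-20.4 to -17.1). The gap was present in each anchor width: 7.89% against 43.0% at 5 kb, 13.1% against 30.8% at 10 kb and 2.79% against 7.94% at 25 kb. Loops and TADs were called on the same map, so both readouts share its depth. Of the 86 fiber TADs with a fiber-only loop at the corner, 30 (34.9%, 25.7 to 45.4) had no matching TAD in either other list and 35 (40.7%) had one in lens epithelium. The TADs at the corners of other fiber loops had no match in 21.8% of cases (19.7 to 24.0), and all 2628 fiber TADs in 31.0% (29.3 to 32.8).

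**Figure D3:**
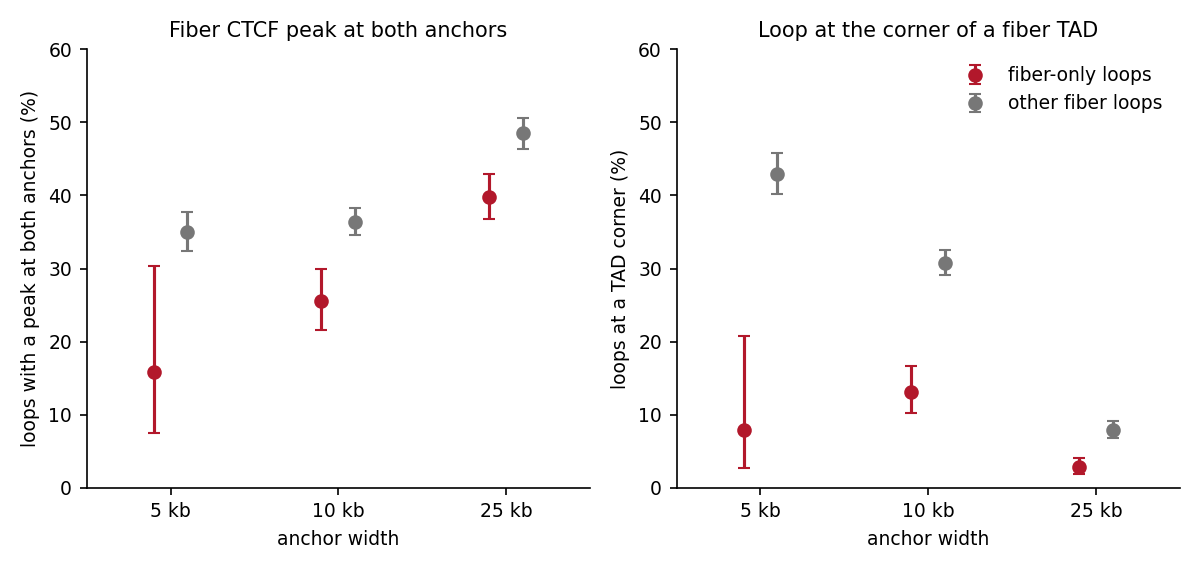
Share of loops (vertical axes, percent, with 95% Wilson intervals as bars) with a fiber CTCF peak at both anchors (left) and at the corner of a fiber TAD (right), by anchor width (horizontal axes), for fiber-only loops (red) and other fiber loops (gray). The red points lie below the gray ones at every width in both panels, with 38 fiber-only loops behind the 5 kb points.

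Both anchors of 388 members lay in 1 fiber TAD, 27.1% (24.9 to 29.5), against 33.6% of the other fiber loops (32.4 to 34.8), a difference of -6.48 points (-9.02 to -3.84). Within anchor widths the differences were -4.46, -2.14 and -2.74 points at 5, 10 and 25 kb, and each interval included 0. In 763 members (53.3%) neither anchor lay in a fiber TAD, in 250 (17.5%) only 1 did and in 31 (2.16%) the anchors lay in different TADs.

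Most fiber-only loops had at least 1 anchor within 25 kb of an anchor of an epithelium loop. How often arbitrary positions lie so near was not computed. ES-only loops had both anchors so near in 22.0% of cases, 1 in 56.2% and neither in 21.8%. Both anchors of 509 members lay within 25 kb of an anchor of some epithelium loop, 35.5% (33.1 to 38.1), 1 anchor of 683 (47.7%) and neither of 240 (16.8%). The share with both was 21.7% where anchors had to overlap. It was 59.5% among the 2547 loops without a counterpart within 10 kb, with anchors still compared within 25 kb. That set takes in loops with an epithelium counterpart 10 to 25 kb away, whose anchors both count as shared by the rule itself. The epithelium-only loops had both anchors at fiber anchors in 28.6% of cases (26.5 to 30.8). With ES cell anchors the shares of the members were 25.8%, 50.3% and 23.8%. Only 147 members, 10.3% (8.80 to 11.9), had neither anchor at an epithelium or ES cell anchor, and in 74 of these no fiber CTCF peak lay at either anchor.

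Members with both anchors at epithelium anchors had a median size of 450 kb and CTCF at both anchors in 48.9% of cases (44.6 to 53.3). With 1 such anchor the values were 280 kb and 28.4% (25.2 to 31.9), and with none 150 kb and 23.8% (18.8 to 29.5). Reuse, size and the share with CTCF at both anchors each also rose with anchor width. Within 25 kb anchors CTCF lay at both anchors of 53.8% (48.9 to 58.6) with both anchors shared, 30.8% (26.7 to 35.3) with 1 and 27.8% (20.9 to 36) with none, at median sizes of 550, 400 and 275 kb. Within 10 kb anchors the shares were 31.8% (23.7 to 41.1), 24.6% (19.4 to 30.5) and 20.7% (13.6 to 30.0), whose intervals overlap, at 150, 120 and 80 kb. The 5 kb anchors held 38 members, too few to compare. Of the 683 members with 1 such anchor, 611 (89.5%) had an epithelium loop that left the shared anchor in the same direction. The fiber-only loop was shorter than every such epithelium loop in 333 of the 683 (48.8%), longer than every one in 194 (28.4%) and between them in 84 (12.3%). The nearest of these epithelium loops differed in size by a median of 145 kb. Among the 509 members with both anchors shared, epithelium loops ran inward from both anchors in 316 (62.1%), and in 121 (23.8%) a pair of them met end to end, so that the fiber-only loop joined the outer ends of a chain of epithelium loops.

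A promoter lay in at least 1 anchor of 494 members, 34.5%, against 28.3% of the other fiber loops, a difference of 6.24 points (3.57 to 8.98). Within 25 kb anchors the shares were 35.2% and 35.3%, and within 10 kb anchors 34.9% and 25.8%, a difference of 9.07 points (4.39 to 14.0). Within 5 kb anchors the difference was -7.57 points (-15.4 to 6.77), and with the other fiber loops weighted to the anchor widths of the members it was 2.44 points. Promoters lay in both anchors of 84 members (5.87%, 4.76 to 7.21), against 3.43% (3.0 to 3.91) of the other fiber loops and 6.07% (5.03 to 7.30) of the epithelium-only loops.

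Anchors of fiber-only loops held an end of 1141 protein-coding genes, 5.52% of the 20661 genes, and of these 767 (67.2%) had no end in an anchor of another fiber loop. Of 9 gene lists related to lens biology and to loop formation, with 169 genes in the table, 25 genes (14.8%) had an end in a fiber-only anchor, and 56 (33.1%) had an end in an anchor of other fiber loops, where 17.0% of all genes had one. The listed genes were thus more frequent than all genes at both kinds of fiber anchor. This was not particular to fiber anchors. ES-only anchors held an end of 35 listed genes (20.7%), against 11.8% of all genes. Epithelium-only anchors held an end of 15 (8.88%), against 6.72% of all genes. The lists were drawn up with earlier results of these data known, so these counts are a description and were not tested. In the CTCF and cohesin list 4 of 14 genes had an end in a fiber-only anchor, and in FGF receptors and ERK signalling 5 of 20. In lens transcription factors 5 of 23 had one, in cataract loci 2 of 11 and in BMP, Wnt, Notch and retinoid signalling 3 of 22. In fiber membrane and cytoskeleton it was 3 of 24, in hypoxia and organelle loss 2 of 21, in cell cycle exit 1 of 18 and in crystallins 0 of 16. The 27 loops at these genes had a median size of 225 kb and a median of 77 contacts, and a fiber CTCF peak lay at both anchors of 9 and at 1 anchor of 17.

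**Figure D4:**
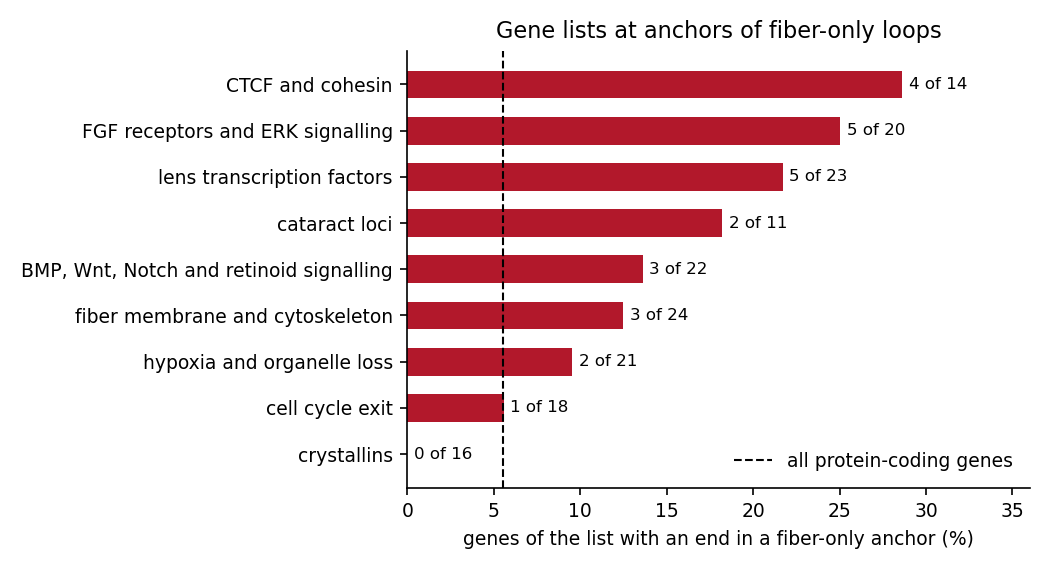
Share of the genes of each list with an end in an anchor of a fiber-only loop (horizontal axis, percent), with the counts beside the bars and the share of all protein-coding genes, 5.52%, as a dashed line. The crystallin list has 0 of 16 and the CTCF and cohesin list 4 of 14.

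HIF1A protein accumulates at low oxygen, and the mature lens has no blood vessels. Hif1a was at an anchor of 2 fiber-only loops, both at chr12:73900001-73910000, which holds its start. One ran 190 kb to chr12:73710001-73720000 inside Prkch, a protein kinase C gene, with 71 contacts, 3.87 times the expected 18.3. The other ran 60 kb to chr12:73960001-73970000 at the start of Snapc1, a subunit of the complex that activates small nuclear RNA genes, with 29 contacts, 4.19 times the expected 6.92. The same Prkch anchor had 2 more fiber-only loops, of 80 kb with 77 contacts and of 270 kb with 60 contacts. These were not picked by the naming rule and were noted after their values were seen.

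The Hif1a region was not without loops in the other lists. The epithelium list had a loop of 120 kb and 49 contacts that ended 7.13 kb past the Hif1a start, which the rule paired with a fiber loop of 125 kb. The ES cell list had a loop of 230 kb and 55 contacts that ended 27.1 kb past the start, inside the gene, and that lay 30 kb from the 190 kb fiber-only loop, just past the limit of the rule. All 3 lists held a loop of 305 to 315 kb that enclosed Hif1a, with 34 contacts in fiber. The fiber CTCF list had 2 peaks within Hif1a, at the start and 23.6 kb past it, of 4.39 and 5.71 fold, and the epithelium list had none. No fiber peak lay in the Prkch anchor or in the Snapc1 anchor. The fiber peak nearest to the former lay 202 kb before the Hif1a start, between that anchor and the anchor of the enclosing loop, and it overlapped an epithelium peak.

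**Figure D5:**
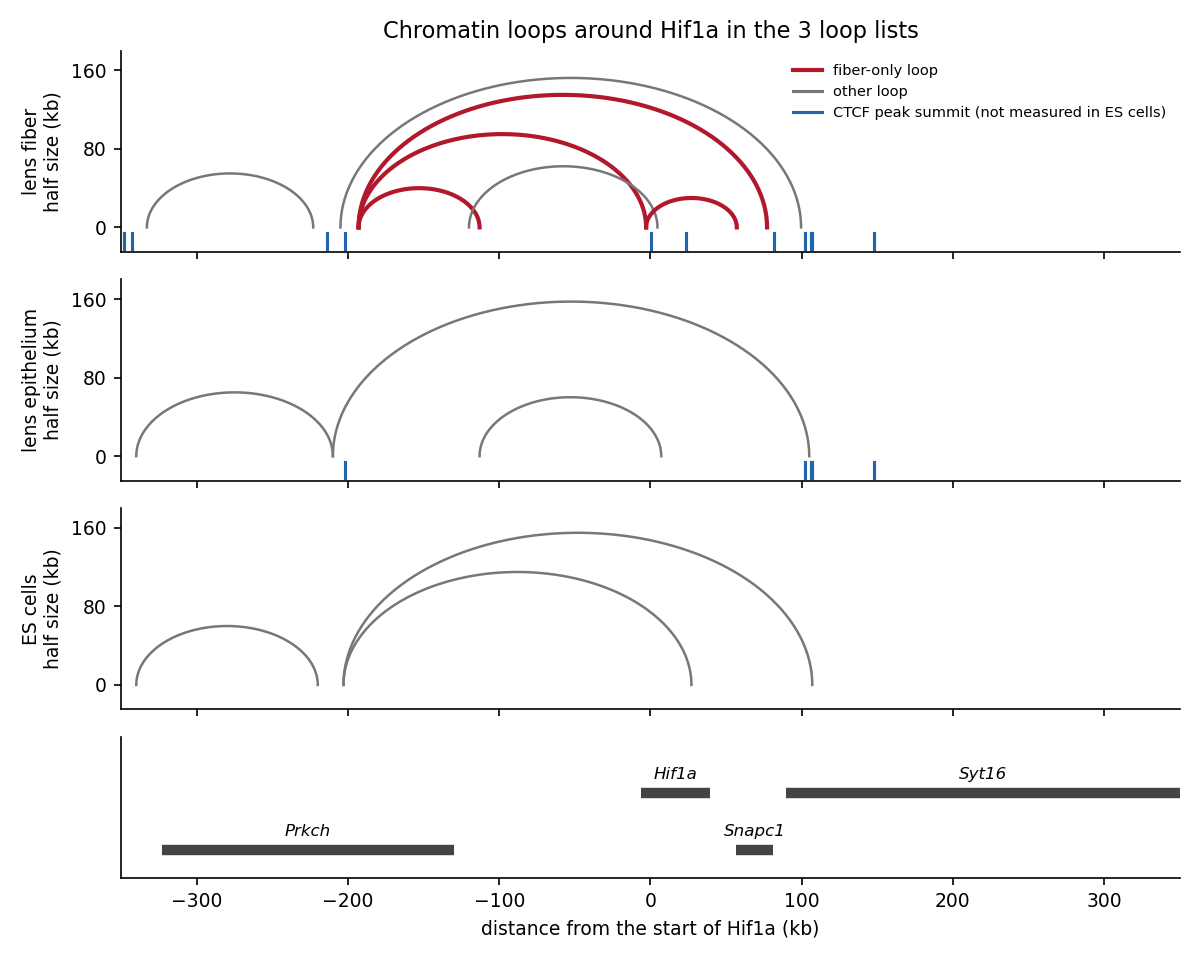
Loops within 350 kb of the start of Hif1a in lens fiber, lens epithelium and ES cells (upper 3 panels, arcs drawn between anchor midpoints, height equal to 0.5 of the loop size in kb), with summits of CTCF peaks as blue ticks and genes in the lowest panel. The fiber panel has 4 fiber-only loops (red), 3 of which share the anchor 193 kb before the Hif1a start, and the enclosing loop is present in all 3 panels.

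Other genes for hypoxia and organelle loss showed single loops. Dnase2b encodes the lens DNase that degrades fiber cell DNA. A fiber-only loop of 200 kb and 55 contacts joined its end (chr3:146560001-146570000, with a fiber peak of 10.1 fold that epithelium shared) to a site inside Prkacb (chr3:146760001-146770000), a catalytic subunit of protein kinase A. The epithelium and ES cell lists each had a loop of 350 kb with an anchor over Dnase2b instead, and the fiber list did not. Atg7 and Atg5, which act in autophagosome formation, had anchors within their bodies: Atg7 in loops of 600 and 100 kb, and Atg5 in a loop of 675 kb with 168 contacts.

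Among the lens transcription factors with an end in a fiber-only anchor were Maf, Pitx3, Rarb and Sox2. Maf drives crystallin genes. Its fiber-only loop spanned 325 kb with 170 contacts (chr8:115700001-115725000 to chr8:116025001-116050000). Maf was overlapped by an anchor of 4 fiber loops, which spanned 325 to 725 kb, of 4 epithelium loops, which spanned 425 to 950 kb, and of no ES cell loop. Pitx3, mutated in the aphakia mouse, which lacks lenses, was joined to Nfkb2 over 170 kb with 80 contacts and peaks of each list at both anchors. Sox2, needed for lens induction and for ES cell identity, had a loop of 325 kb with 172 contacts beside loops of up to 840 kb in all 3 lists. Rarb, a retinoic acid receptor, had a loop of 350 kb with 81 contacts whose anchor midpoints both lay in the gene. Casz1 and Meis1, also transcription factors, had fiber-only anchors within their bodies, and the Casz1 loop of 50 kb and the Meis1 loop of 60 kb had both anchor midpoints in the gene.

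In FGF signalling, which drives fiber differentiation, the genes were Fgfr2, Grb2, Etv1, Spred1 and Spry2. Fgfr2, a receptor for FGF, had a loop of 500 kb and 185 contacts (chr7:129650001-129675000 to chr7:130150001-130175000). Its distal anchor had a fiber peak of 12.6 fold and an epithelium peak of 8.33 fold. This loop was 1 of 4 fiber loops over Fgfr2, and epithelium had 2 of at most 200 kb and ES cells none. Grb2, the adaptor that links receptors to Ras, had a loop of 225 kb and 97 contacts with fiber peaks of 10.3 and 12.2 fold, and epithelium peaks lay at both anchors too. Etv1, a transcription factor downstream of ERK, had a loop of 450 kb and 117 contacts. The inhibitors of this pathway had loops of 200 kb and 180 contacts at Spred1 and of 80 kb and 43 contacts at Spry2, whose promoter anchor had a peak of 9.36 fold absent from the epithelium list.

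Genes of the machinery that forms loops were themselves at fiber-only anchors. Ctcf had both of its ends at the anchors of a single loop of 50 kb (chr8:105630001-105640000 to chr8:105680001-105690000) with 70 contacts, 2.04 times the expected 34.3. Each anchor had a fiber peak without an epithelium peak, of 7.13 and 5.53 fold, and neither of the other lists had an anchor over Ctcf. Smc3, a core subunit of cohesin, was at the near anchor of loops of 275 kb with 100 contacts and of 1575 kb with 58 contacts. Pds5b, whose promoter is printed above, had a loop of 690 kb with 25 contacts, 5.12 times the expected 4.88, that ended inside Stard13, a GTPase-activating protein. No epithelium anchor overlapped Smc3 or Pds5b, and the ES cell list had 3 loops with an anchor over Smc3. Within 25 kb, however, epithelium anchors lay at both anchors of each of these Smc3 loops and at 1 anchor of the Pds5b loop.

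Esco1, an acetyltransferase for cohesin, had a loop of 90 kb to Abhd3 with 33 contacts. Its FDR against the donut was 0.0228, where the median over all members was 2.91e-06. The largest FDR value of this loop was 0.0336, and some other named loops had larger ones. This value was 0.0944 for the Meis1 loop, 0.0845 for that from Slc22a8 to Asrgl1, 0.0741 for that of Gstm6 and Gstm1 and 0.0671 for that of Spry2.

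Genes of the fiber membrane and cytoskeleton followed. The promoter of Vim, which encodes the intermediate filament vimentin, was joined over 175 kb to Cubn with 212 contacts, 1.90 times the expected 111. No CTCF peak lay at either anchor, but the fiber and epithelium lists each had 1 peak within Vim, outside the anchor. A loop of 280 kb over Vim was in all 3 lists. Lgsn, a lens protein related to glutamine synthetase, had a loop of 1350 kb with 50 contacts. A promoter window inside Bfsp1, the gene of the lens filament protein filensin, lay in an anchor of a loop of 600 kb and 85 contacts to Dzank1. This anchor held neither end of Bfsp1.

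The signalling list added Hes1, Rdh10 and Wnt7a. Hes1, a target of Notch, was at an anchor of 2 fiber-only loops, of 425 kb with 135 contacts and of 60 kb with 68 contacts, with a peak of 4.52 fold at its own anchor that epithelium lacked. The epithelium list had 1 loop over Hes1, of 335 kb. Rdh10, which makes retinaldehyde for retinoic acid, had a loop of 200 kb and 48 contacts into Stau2, where all other loops over the gene were of 325 kb in the 3 lists. Wnt7a had a loop of 575 kb and 77 contacts. A promoter window inside Tcf7l2, a partner of β-catenin, was in an anchor of a loop of 240 kb with 49 contacts, which held neither end of the gene.

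The paralogs Gstm6 and Gstm1, of the glutathione S-transferase cluster, lay at opposite anchors of 1 loop of 60 kb (chr3:107950001-107960000 to chr3:108010001-108020000) with 61 contacts, 2.21 times the expected 27.6. The Gstm6 anchor carried the promoter peak described with its sequence, and the Gstm1 anchor had none. Neither other list had an anchor over either gene. The genes of this cluster are similar in sequence, and how reads were placed among such copies was not tested. E2f1, which drives entry into S phase, was at an anchor of a loop of 50 kb and 78 contacts to Pxmp4.

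Few places gathered several fiber-only loops. The anchors fell into 2614 sites of midpoints within 25 kb of each other, of which 2382 (91.1%) had 1 loop end, 216 had 2, 14 had 3 and 2 had 4. A site with 4 ends lay at chr7:38125001-38200000, over 1600014C10Rik, and its loops of 50, 100, 125 and 1700 kb had 30, 52, 67 and 50 contacts. The other, at chr15:44812501-44850000, overlapped no protein-coding gene. Its loops were of 200, 850, 2150 and 3950 kb, it held 3 fiber CTCF peaks and no epithelium peak, and 2 epithelium and 3 ES cell loops ended there too. Of the 14 sites with 3 ends, those with most contacts lay over Fbxl18, Hs3st3b1 and Vstm2b.

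The strongest members relative to their surroundings were mostly short. Among members with at least 20 observed contacts, the 10 with the highest ratio had ratios of 5.88 to 10.3 and a median size of 105 kb. In 6 of the 10 no fiber CTCF peak lay at either anchor, and in 6 neither anchor was at an epithelium anchor, against 21.3% and 16.8% of all members. Of the 10 loops, 8 had anchors of 5 or 10 kb, and members with anchors of 5 and 10 kb had a fiber peak at neither anchor in 55.3% and 30.7% of cases. The highest was a loop of 100 kb on chromosome 7 (chr7:7175001-7200000 to chr7:7275001-7300000) from Zfp418, a zinc finger gene, to Clcn4, a chloride and proton exchanger, and the pheromone receptor gene Vmn2r29, with 62 contacts where 5.99 were expected. It was followed by a loop of 410 kb on chromosome 3 with Tdpoz3 at 1 anchor and 22 contacts where 2.39 were expected, and by a loop of 60 kb on chromosome 10 with 22 contacts where 2.45 were expected, which had no gene end at an anchor. Zinc finger, Vmn2r and Tdpoz genes belong to families of similar copies, for which the placing of reads was not tested either. A loop of 100 kb at Csn3, the milk protein κ-casein, had 76 contacts where 12.6 were expected, and a loop of 45 kb joined Pld4, an endosomal exonuclease, to Clba1 with 21.

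The longest members rested on few contacts. In all, 25 members (1.75%, 1.19 to 2.56) were longer than 3 Mb, against 0.939% (0.726 to 1.21) of the other fiber loops, and 10 of the 25 had fiber CTCF at both anchors. The 3 longest, of 62350, 60610 and 20425 kb on chromosomes 6, 3 and 1, had 15, 17 and 13 contacts where 0.359, 0.0204 and 0.238 were expected, no CTCF peak of either lens list at an anchor, and no anchor near one of the epithelium or ES cell lists. The first had an end of Bmt2 at 1 anchor and the last ended inside Erbb4, a receptor tyrosine kinase. The next 3 lay together on chromosome 2, between positions 77900001 and 84440000, and had more contacts. They spanned 6410, 6050 and 6025 kb with 22, 75 and 91 contacts, the last from Cwc22, a splicing factor, to Zswim2, and each had a CTCF peak of each list at the first anchor and none at the second. The epithelium list had loops 37.5, 225 and 125 kb from these, whereas the nearest in ES cells was 3275 kb away.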

How the data were processed

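Hi-C was analysed for lens epithelium, lens fiber cells and ES cells (2 replicates each, merged by the authors) and CTCF ChIP-seq for both lens cell types (1 sample each). Per the labels and the methods of the study, the authors aligned reads to mm10 with BWA, built contact maps with Juicer and called loops and TADs with juicer_tools 2.13.06. The deposited loop lists hold observed contact counts, the expected signal around each loop and FDR values (q-values) by HiCCUPS. The deposited CTCF lists, called by the authors with MACS2, hold fold enrichment as a ratio over background and -log10 q-values. In the ES cell list the deposited donut expectation was read as a score, since 1 value is below 0, and no ratio from it is given.

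Here loops were compared within 25 kb, peaks, promoters and gene ends were assigned to anchors by an overlap of 1 bp, and a gene end is either end of a protein-coding gene in the RefSeq table of GRCm38.p6. Anchors with midpoints within 25 kb formed a site. Loops were named where they had the 10 highest ratios (at least 20 contacts), the 10 longest spans, the 5 sites with most ends (ties by summed contacts), the 5 strongest pairs of peaks absent from epithelium, or an end of a listed gene, and genes inside which such an anchor lay were named with them. Some named genes that enter the counts are not reported here. The members and the gene lists were chosen with earlier results of these data known. With 1 list per cell type no test was possible. Depth per map is not in the lists. Calculations used Python 3.11.15, numpy 2.4.6 and pandas 2.3.3, and the code was tested on simulated data. Alternatives changed the distance, the FDR limit, the anchor width, the peak list and the TAD list.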

Additional observations from a re-analysis of the deposited data

How the results depend on the processing

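Of 67 alternative values 23 stayed close to those reported and 44 moved. In 11 of 11 settings CTCF lay at both anchors less often in fiber-only than in other fiber loops, and in 6 of 6 fiber-only loops were less often at a TAD corner. No replicate could be left out, and no paired analysis was possible because the replicates were merged before loops were called. The causes of the shifts were not tested.

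With counterparts sought within 10 kb, the fiber-only loops numbered 2547 and their genes 1906. The share with both anchors at epithelium anchors, still compared within 25 kb, was 59.5%. Loops with an epithelium counterpart 10 to 25 kb away raise this share by the rule itself. The share of other fiber loops with CTCF at both anchors was 42.8%. Within 50 kb, 24.2% lay in 1 fiber TAD. Where anchors had to overlap by 1 bp, there were 3457 fiber-only loops. With all FDR values below 0.01, CTCF lay at both anchors of 43.3% of other fiber loops.

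With 5 kb anchors alone there were 38 fiber-only loops, of median size 67.5 kb, with CTCF at both anchors in 15.8% (other loops 35%), both anchors at epithelium anchors in 15.8% and 31.6% in 1 TAD. With 10 kb anchors there were 427, of 120 kb, with 25.5% (other loops 36.4%), 25.1% and 37.2%. With 25 kb anchors the median size was 475 kb and the shares 39.8% (other loops 48.5%), 41.0% and 22.4%.

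CTCF at both anchors came to 47.1% of fiber-only and 60.4% of other fiber loops with anchors widened by 5 kb, to 17.0% and 19.6% with the stronger 50% of peaks, and to 15.4% and 17.3% with epithelium peaks. Reuse was 21.7% where anchors had to overlap epithelium anchors and 25.8% for ES cell anchors. The share within 1 TAD was 22.8% for whole anchors and 24.5% with ES cell TADs.

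The TAD corner alternatives were chosen after seeing the data. Fiber-only and other fiber loops lay at a corner in 2.23% and 11.2% within 10 kb, in 10.9% and 30.8% within 50 kb, and within 25 kb in 7.89% and 43.0%, 13.1% and 30.8%, and 2.79% and 7.94% with 5, 10 and 25 kb anchors.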

Other observations

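Fiber-only loops were compared with the TADs of the other cell types as well. They lay at the corner of an epithelium TAD in 3.84% of cases (2.96 to 4.97) and of an ES cell TAD in 4.61% (3.64 to 5.82), against 17.2% (16.2 to 18.1) and 21.9% (20.9 to 23.0) of the other fiber loops. Gene ends lay in both anchors of 13.1% of the members (11.4 to 14.9) and of 10.3% of the other fiber loops (9.53 to 11.1). Of the genes with an end in a fiber-only anchor, 156 (13.7%) also had one in an epithelium-only anchor.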
